A study of Mus musculus with 5 samples.

Results

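The genes described here are 10 neutrophil granule and S100 genes, S100a8, S100a9, Ngp, Camp, Ltf, Lcn2, Retnlg, Mmp8, Mmp9 and Chil3, found by their symbols or gene identifiers among the 55645 gene identifiers of the features lists. All 10 were listed in every library, with Retnlg spelled Retnig in the whole-tumor lists and matched there by its identifier (ENSMUSG00000022651). They were measured by droplet single-cell RNA sequencing (scRNA-Seq), in which every captured transcript is tagged with a cell barcode and a unique molecular identifier (UMI) and distinct UMIs are counted per gene. The tumors were grown from 4T1, a mouse triple negative mammary cancer line, here 4T1-Thy1.1 cells that carry the CD90.1 surface marker, in the mammary fat pad of female BALB/c mice 12 weeks old. Sensitive and resistant tumors were from mice given doxorubicin (DOX) intravenously at 5 mg/kg in 3 doses 3 days apart, and control tumors were from mice given saline. Whole tumor was sequenced in 3 libraries (control, sensitive, resistant), and T cells enriched by magnetic depletion of other cells and of CD90.1 cells, pooled from 3 tumors, in 2 (sensitive, resistant). The whole-tumor library titled resistant is given as resistant in its DOX sensitivity field but as sensitive in its source field, so it is used as the library labelled resistant. The source field of the control library also names a sensitive tumor, with saline given, while its DOX sensitivity field is not applicable. By the gating described below, T cells were 65 of 488 kept whole-tumor barcodes in control, 4 of 269 in sensitive and 13 of 263 in resistant. The paper instead reports its highest whole-tumor T cell share in sensitive tumors. Whether the titles match the tumors was not tested, so each group name below is that of the title. Each group held 1 library, so no difference between libraries has a replicate check and no p-value is given.

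Neutrophils load their granules in waves as they mature in the bone marrow. Primary granules are filled first, then secondary (specific) granules that hold lactoferrin, cathelicidin and neutrophilic granule protein, then gelatinase granules, while S100a8 and S100a9 fill the cytosol. Because most granule transcripts fade before a neutrophil enters the blood, they mark how far a cell found in tissue is from the marrow stage, and in tumors S100a8 and S100a9 are also known as alarmins released by myeloid cells.

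Neutrophils were gated as barcodes with at least 2 of 10 neutrophil markers, none of them a gene described here, and more neutrophil markers than markers of any of the other 7 cell types. They numbered 307 of 488 kept barcodes (62.9%, 58.5 to 67.2) in control, 218 of 269 (81.0%, 75.8 to 85.5) in sensitive and 134 of 263 (51.0%, 44.7 to 57.1) in resistant whole tumor. Of the T cell libraries, 160 of 3605 kept barcodes (4.44%, 3.79 to 5.16) and 187 of 3229 (5.79%, 5.01 to 6.65) passed the gate, although the depletion was made to remove myeloid cells. Between 8 and 10 of the 10 neutrophil markers were seen in at least 10% of gated cells of each library, and the summed level of any other type's marker list was at most 311.8 CPM (a gene's UMIs scaled to counts per 1000000 UMIs of the gated cells), against at least 12619 CPM for the neutrophil list. Median UMIs per neutrophil were 1523, 1480.5 and 2139.5 in control, sensitive and resistant whole tumor, and 2074 and 2377 in the sensitive and resistant T cell libraries. The T cell libraries shared 31 cell barcodes, 18 of them among kept cells, and no whole-tumor library shared any with another. Brackets after a value give its 95% interval, exact Poisson for a level, Clopper-Pearson for a share and exact conditional binomial for a ratio of levels, and cover counting error only. Whole-tumor and T cell libraries were counted against different gene lists and are not set against each other.

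The stretches before the starts of 5 of the genes are shown because they stand for the patterns described next, the S100 pair and the secondary granule genes that sat in the same few cells. Each holds the 250 bases before the RefSeq start (GRCm38.p6), 5′ to 3′ on the gene's strand. Capitals mark TTGCNNAA, letters used for C/EBP factors, GAGGAA, used for PU.1, and TATAAA, searched on both strands, so that TTCCTC is GAGGAA read on the other strand.
S100a8 at chr3:90668821-90669070 (+): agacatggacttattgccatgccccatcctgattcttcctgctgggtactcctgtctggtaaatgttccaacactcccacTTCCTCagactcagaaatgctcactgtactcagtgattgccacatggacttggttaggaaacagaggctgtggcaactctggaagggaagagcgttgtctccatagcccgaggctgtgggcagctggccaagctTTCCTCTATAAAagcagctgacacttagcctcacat
S100a9 at chr3:90695722-90695971 (-): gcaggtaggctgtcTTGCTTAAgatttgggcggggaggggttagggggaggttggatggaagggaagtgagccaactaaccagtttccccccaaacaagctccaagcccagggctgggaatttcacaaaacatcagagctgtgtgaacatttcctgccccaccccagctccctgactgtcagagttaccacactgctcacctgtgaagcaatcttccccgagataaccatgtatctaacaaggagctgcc
Ngp at chr9:110419558-110419807 (+): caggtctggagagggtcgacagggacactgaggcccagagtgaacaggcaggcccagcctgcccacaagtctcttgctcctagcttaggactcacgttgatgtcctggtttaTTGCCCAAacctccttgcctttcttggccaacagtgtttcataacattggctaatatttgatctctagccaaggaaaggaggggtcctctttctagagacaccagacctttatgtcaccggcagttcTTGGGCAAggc
Camp at chr9:109849457-109849706 (-): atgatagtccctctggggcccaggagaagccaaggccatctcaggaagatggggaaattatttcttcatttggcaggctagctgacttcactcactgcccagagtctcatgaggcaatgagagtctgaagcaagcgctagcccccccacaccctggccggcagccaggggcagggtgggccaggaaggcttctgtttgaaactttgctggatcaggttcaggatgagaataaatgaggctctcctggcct
Ltf at chr9:111019042-111019291 (+): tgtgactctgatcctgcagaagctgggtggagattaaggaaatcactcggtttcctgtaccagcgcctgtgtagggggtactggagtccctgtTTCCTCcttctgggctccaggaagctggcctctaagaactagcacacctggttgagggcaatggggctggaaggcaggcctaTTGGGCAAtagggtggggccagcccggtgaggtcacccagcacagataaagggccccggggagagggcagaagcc

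The C/EBP-type letters were in the promoters of 6 of the 9 genes with an entry (S100a9, Ngp, Ltf, Lcn2, Mmp8 and Retnlg), and in 9.56% of 32851 RefSeq promoter windows of that length. GAGGAA was in 4 (S100a8, Ltf, Lcn2 and Mmp8) against 23.3% of all windows, and TATAAA in S100a8 alone against 12.4%. In S100a8 a GAGGAA began 36 bases before the start and ran straight into the TATAAA, which began 30 bases before it, without overlap. Camp and Chil3 held none of these letters in the window. The RefSeq starts of S100a8, Ngp, Camp, Ltf and Lcn2 lie inside the spans that the GENCODE annotation gives those genes, so these windows lie in part, or for Lcn2 wholly, inside the annotated gene. A match of letters is a description of the sequence and not a measured binding site.

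S100a8 and S100a9 code for the subunits of calprotectin, the calcium- and zinc-binding complex that is the most abundant cytosolic protein of neutrophils. They lie 22596 bases apart on chromosome 3, S100a8 at chr3:90668978-90670035 on the plus strand (up to 3 exons) and S100a9 at chr3:90692632-90695721 on the minus strand. S100a8 stood at 114275 CPM (113444 to 115110.0) in control, 71982 CPM (71117 to 72854) in sensitive and 75936 CPM (74963 to 76918) in resistant whole-tumor neutrophils. S100a9 stood at 73026 CPM (72362 to 73695), 54803 CPM (54049 to 55565) and 55176 CPM (54347 to 56014). Control was highest for both genes, while sensitive and resistant differed little. The ratio of sensitive to control was 0.630 (0.621 to 0.639) for S100a8 and 0.750 (0.738 to 0.763) for S100a9, and that of resistant to control 0.665 (0.655 to 0.674) and 0.756 (0.742 to 0.769), so all were lower than control by less than 2-fold. Sensitive and resistant did not differ in S100a9 beyond counting error (ratio 0.993, 0.973 to 1.01) and differed by 1.05-fold in S100a8 (sensitive over resistant 0.948, 0.931 to 0.965), which was 1.01 among cells with at least 500 genes.

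The pair took a large part of what these cells transcribed. Together they made up 18.7%, 12.7% and 13.1% of all neutrophil UMIs in control, sensitive and resistant whole tumor, out of 20.4%, 13.5% and 14.0% for the 10 genes. Within a cell the share of UMIs from the pair ran from 0.126% to 47.0% with a median of 14.7% in control. In sensitive it ran from 0% to 31.5% (median 9.55%), and in resistant from 0% to 33.4% (median 11.5%). The ranges over cells therefore overlapped widely between libraries. Shares this large also pull down the level of every other gene on the CPM scale, and with the 10 genes left out of the totals the counts of genes past 2-fold given next stayed within 1.5 times.

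**Figure D1:**
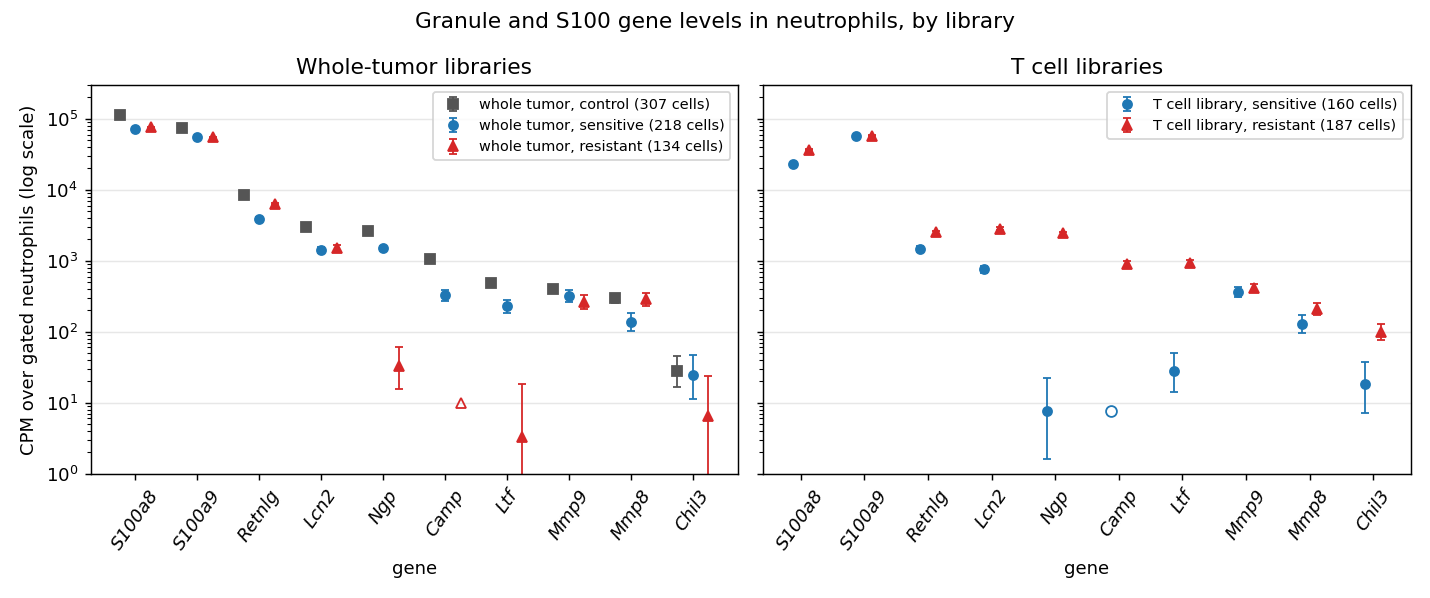
Level of each of the 10 genes in gated neutrophils, in CPM on a log axis, for the 3 whole-tumor libraries and, apart, the 2 T cell libraries. Points are libraries, bars are 95% Poisson intervals for counting error, and an open symbol marks 0 UMIs drawn at the level that 3 UMIs would give. Ngp, Camp and Ltf span the widest range between libraries and S100a9 the narrowest.

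Neutrophils of the T cell libraries held S100a8 at 23302 CPM (22824 to 23787) in sensitive and 36495 CPM (36005 to 36989.8) in resistant, and S100a9 at 57566 CPM (56814 to 58327) and 57765 CPM (57148 to 58386). S100a9 was equal within counting error (sensitive over resistant 0.997, 0.980 to 1.01), whereas S100a8 was lower in sensitive, at a ratio of 0.638 (0.623 to 0.654). The share of a cell's UMIs from the pair had a median of 6.52% in sensitive (0% to 31.8%) and 7.30% in resistant (0% to 38.1%). Among neutrophils in the late range of the maturation index described further on, the S100a8 ratio was 0.799 and the S100a9 ratio 1.12.

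The balance of the pair was compared between libraries of the same set, which were counted against the same gene list. UMIs of S100a8 per UMI of S100a9 came to 1.56 (1.55 to 1.58) in control, 1.31 (1.29 to 1.34) in sensitive and 1.38 (1.35 to 1.40) in resistant whole-tumor neutrophils. More S100a8 than S100a9 was counted in 215 of 307 cells (70.0%), 132 of 218 (60.6%) and 95 of 134 (70.9%). Read apart, the T cell libraries had 0.405 (0.395 to 0.415) in sensitive and 0.632 (0.621 to 0.643) in resistant, and 8 of 160 cells (5.00%) and 27 of 187 (14.4%) had more S100a8. Gene list and depletion both differ between the library sets, so the balance is not compared across them.

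**Figure D2:**
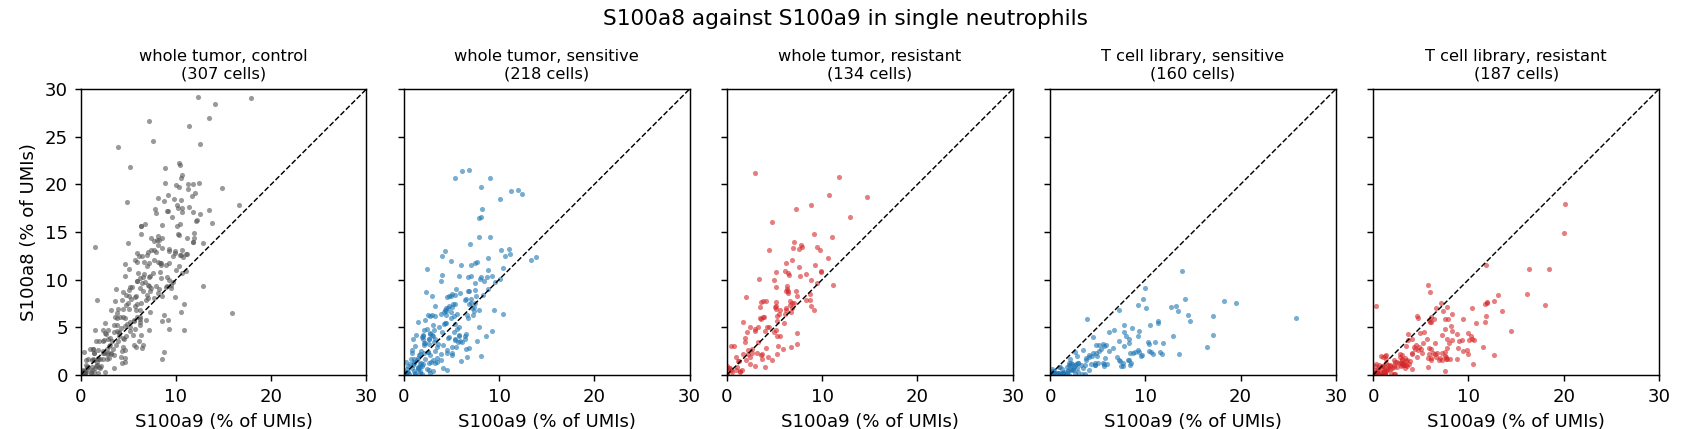
S100a8 against S100a9 in single gated neutrophils, each as a percent of the cell's UMIs, with 1 panel per library and a dashed line of equality. Most cells of the 3 whole-tumor libraries lie on the S100a8 side of the line and most cells of the 2 T cell libraries on the S100a9 side. The sets differ in gene list and depletion and are not compared with each other.

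Ngp (neutrophilic granule protein), Camp (the cathelicidin precursor) and Ltf (lactoferrin, which binds iron) are secondary granule genes and lie on chromosome 9, Camp at chr9:109847379-109849617, Ngp at chr9:110419747-110423012 and Ltf at chr9:111019271-111042767. Ngp was at 2637 CPM (2512 to 2766) in control, 1507 CPM (1384 to 1638) in sensitive and 32.6 CPM (15.6 to 60.0) in resistant whole-tumor neutrophils, from 1670, 554 and 10 UMIs. Camp was at 1069 CPM (989.9 to 1153), 326 CPM (271 to 390.4) and 0 CPM, from 677, 120 and 0 UMIs, and 3 UMIs in place of the 0 would give 9.79 CPM. Ltf was at 480.0 CPM (428 to 537), 229 CPM (182 to 283) and 3.26 CPM (0.0826 to 18.2), from 304, 84 and 1 UMIs. All followed the order control, sensitive, resistant, with intervals that did not overlap. Resistant over control was 0.0124 (0.00592 to 0.0228) for Ngp, 0.00916 for Camp with 3 UMIs in place of 0, and 0.00680 (0.000172 to 0.0382) for Ltf. Sensitive over control was 0.572 (0.518 to 0.630), 0.305 (0.249 to 0.371) and 0.476 (0.369 to 0.608). Sensitive over resistant was 46.2 (24.9 to 96.9) for Ngp, 33.4 for Camp with 3 UMIs in place of 0, and 70.0 (12.2 to 2799) for Ltf.

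These levels came from few cells. At least 1 Ngp UMI was seen in 17.3%, 7.80% and 2.99% of control, sensitive and resistant neutrophils, which after thinning each cell to 500 UMIs became 9.45%, 2.80% and 0.746%. A single control cell held 444 of the 1670 Ngp UMIs (26.6%) and 269 of the 677 Camp UMIs (39.7%). In sensitive a single cell held 504 of 554 Ngp UMIs (91.0%), 118 of 120 Camp UMIs (98.3%) and 79 of 84 Ltf UMIs (94.0%). The sensitive level of these genes therefore came mostly from 1 cell of 218. The genes were often seen in the same cells in control. Of 31 control cells with at least 2 Ngp UMIs, 16 had Camp and 17 had Ltf, and of 17 control cells with Camp 16 had Ngp. In sensitive 1 of 3 cells with Camp and 1 of 5 with Ltf had Ngp, and in resistant none of 3 cells with at least 2 Ngp UMIs had Camp or Ltf.

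The order of the groups was the other way round in the T cell libraries. Ngp was at 7.74 CPM (1.60 to 22.6) in sensitive (3 UMIs) and 2430.5 CPM (2305 to 2561) in resistant neutrophils (1411 UMIs), a ratio of 0.00318 (0.000656 to 0.00932). Camp had 0 UMIs in sensitive against 531 (915 CPM, 839 to 996) in resistant, a ratio of 0.00846 with 3 UMIs in place of 0. Ltf was at 28.4 CPM (14.2 to 50.8) against 944 CPM (867 to 1026), a ratio of 0.0301 (0.0149 to 0.0542). Again a single resistant cell held most of the UMIs, 889 of Ngp (63.0%), 408 of Camp (76.8%) and 299 of Ltf (54.6%), and Ngp was seen in 3 of 4 resistant cells with Camp and 4 of 10 with Ltf. The 11 Ltf UMIs of the sensitive library were spread over 8 cells, none with Ngp.

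Lcn2 codes for lipocalin 2, a secondary granule protein that binds bacterial siderophores and that epithelial cells also make, and lies at chr2:32384633-32388252. It stood at 3003 CPM (2869.7 to 3141) in control, 1417 CPM (1298 to 1545) in sensitive and 1514 CPM (1379 to 1658) in resistant whole-tumor neutrophils. Over all gated neutrophils control was higher, at a ratio of 0.472 (0.428 to 0.520) for sensitive and 0.504 (0.455 to 0.558) for resistant over control. In cells in the late range of the index described further on, resistant over control turned to 1.15 (1.01 to 1.30). Sensitive and resistant did not differ beyond counting error over all neutrophils (0.936, 0.825 to 1.06), but in late-range cells sensitive was at 0.505 (0.432 to 0.589) of resistant. Unlike Ngp it was seen widely, in 57.3%, 44.0% and 58.2% of cells, or 42.7%, 22.0% and 34.3% at 500 UMIs. The sensitive cell that held most of the Ngp also gave 225 of the 521 Lcn2 UMIs (43.2%). Neutrophils of the T cell libraries held it at 761 CPM (677 to 853) in sensitive and 2842 CPM (2707 to 2983) in resistant, a ratio of 0.268 (0.236 to 0.303), with 522 of 1650 resistant UMIs in 1 cell.

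Mmp8 and Mmp9 code for neutrophil collagenase and gelatinase B, proteases stored in secondary and gelatinase granules, and lie at chr9:7558456-7568485 and chr2:164940780-164955850. Mmp8 stood at 298 CPM (257 to 344) in control, 139 CPM (103 to 182) in sensitive and 287 CPM (230.3 to 354) in resistant, so sensitive was low and the other libraries did not differ beyond counting error over all neutrophils (resistant over control 0.962, 0.739 to 1.25), while in late-range cells resistant over control was 1.60 (1.17 to 2.20). Sensitive was at 0.465 (0.334 to 0.636) of control and 0.483 (0.335 to 0.690) of resistant, and Mmp8 was seen in 24.4%, 12.4% and 29.1% of cells. Mmp9 stood at 395 CPM (347 to 447), 318 CPM (263 to 382) and 264 CPM (209.9 to 329). Only resistant and control were apart in Mmp9, at a ratio of 0.670 (0.515 to 0.864), while neither differed from sensitive beyond counting error. Sensitive over control was 0.806 (0.642 to 1.01) and sensitive over resistant 1.20 (0.900 to 1.62) for Mmp9. Mmp8 was also lower in sensitive than resistant neutrophils (129 against 210.1 CPM, ratio 0.614, 0.433 to 0.860) of the T cell libraries, and Mmp9 (361 against 408 CPM) did not differ beyond counting error (0.885, 0.713 to 1.09).

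Retnlg codes for resistin-like gamma, a small secreted protein of neutrophils, and lies at chr16:48872621-48874496. It stood at 8496 CPM (8271 to 8726) in control, 3888 CPM (3689 to 4095) in sensitive and 6298 CPM (6019.9 to 6585) in resistant. Sensitive was lowest, at 0.458 (0.431 to 0.485) of control and 0.617 (0.576 to 0.661) of resistant, and resistant over control was 0.741 (0.703 to 0.781), which turned to 1.10 (1.04 to 1.17) in late-range cells. It was seen in 73.3%, 54.1% and 75.4% of cells, and in 59.6%, 38.3% and 58.2% at 500 UMIs, so the low level in sensitive went with fewer positive cells. Sensitive was again lower in the T cell libraries, at 1463 CPM (1345 to 1588) against 2522 CPM (2394 to 2654), a ratio of 0.580 (0.525 to 0.639).

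Chil3 codes for the chitinase-like protein Ym1, made by neutrophil precursors and by macrophages, and lies at chr3:106147554-106167564. It was rare in whole-tumor neutrophils, with 18, 9 and 2 UMIs in control, sensitive and resistant (28.4, 24.5 and 6.53 CPM). Sensitive and control did not differ beyond counting error (0.862, 0.341 to 2.02), and resistant over control was 0.230 (0.0258 to 0.959). In the T cell libraries it had 7 UMIs in sensitive and 58 in resistant neutrophils, a ratio of 0.181 (0.0696 to 0.397), and 33 of the 58 lay in 1 cell. The macrophage marker list stood at 129 CPM in these sensitive and 312 CPM in these resistant neutrophils, and its part in the Chil3 ratio was not tested.

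A gene was counted as past 2-fold where the ratio of CPM was at least 2 or at most 0.5 with at least 20 UMIs over both libraries. For sensitive over control neutrophils 5 of 10 genes were past 2-fold, all lower (Camp, Ltf, Lcn2, Mmp8, Retnlg), where 15.4% of all 3004 genes with enough UMIs were past it, 10.2% higher and 5.23% lower. For resistant over control 4 of 10 were lower (Ngp, Camp, Ltf, Chil3) and none higher, against 14.1% of 2891 genes past 2-fold, 8.75% higher and 5.33% lower. These comparisons share the control library. For sensitive over resistant whole-tumor neutrophils 3 of 9 were higher (Ngp, Camp, Ltf) and 1 lower (Mmp8), against 8.32% of 2439 genes, 5.00% higher and 3.32% lower. For sensitive over resistant neutrophils of the T cell libraries 5 of 10 were lower (Ngp, Camp, Ltf, Lcn2, Chil3) and none higher, against 11.2% of 3653 genes, 3.34% higher and 7.86% lower. The median ratio of the counted genes was 0.524, 0.584, 0.993 and 0.424 in these comparisons, and that of all genes 1.09, 1.08, 0.986 and 0.998, so levels of all genes against control were shifted up by 0.12 and 0.11 on the log2 scale.

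To place the genes along maturation without using them, an index was taken in each neutrophil as the UMIs of 13 early genes (such as Ifitm6, Pglyrp1, Anxa1 and Ly6g) over the UMIs of those and of 10 late genes (such as Il1b, Cxcr2 and Csf3r). Some of these genes, among them Cd177, Ly6g, Pglyrp1, Cxcr2 and Csf3r, were also gate markers. Of the 13 early genes only 6 or 7 had enough UMIs for a ratio in any comparison of all neutrophils between libraries, so the index rests on those. Early was an index of at least 0.5, late under 0.1 and middle between them, which are ranges of a score and not cell types. Control had 5 early, 41 middle and 260 late cells among 306 with at least 3 index UMIs, sensitive 1, 9 and 208, and resistant 0, 2 and 132. The early share was thus 1.63% (0.533 to 3.77) in control, 0.459% (0.0116 to 2.53) in sensitive and 0% (0 to 2.72) of 134 in resistant. The T cell libraries had 0 early, 5 middle and 155 late cells in sensitive and 3, 6 and 178 in resistant (early share 1.60%, 0.332 to 4.62). Early cells were few everywhere, and they held more UMIs than late cells, with medians of 5727 in early, 3374 in middle and 1430.5 in late control cells. No whole-tumor neutrophil had a UMI of the proliferation gene Mki67.

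Along this index Ngp, Camp and Ltf differed most between early and late cells. In control, Ngp went from 32563 CPM in early to 3345 in middle and 74.0 in late cells, Camp from 16508 to 766 and 4.62, and Ltf from 6639 to 455 and 18.5. Early over late came to 440.1 (309.8 to 647) for Ngp and 359 (179 to 842) for Ltf, and for Camp to 3569 (983 to 29549) with 2 UMIs in late cells. The 5 early cells held 64.6% of the Ngp, 80.8% of the Camp and 72.4% of the Ltf UMIs of all control neutrophils. Lcn2 declined less, from 12313 to 5511 and 1325 CPM (early over late 9.29, 8.16 to 10.6), and most of its UMIs lay outside the early cells, which held 21.5%.

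The S100 pair was high in every range. S100a8 stood at 225585, 169344 and 84623 CPM in early, middle and late control cells (early over late 2.67, 2.60 to 2.73). S100a9 stood at 119206, 92696 and 61987 (early over late 1.92, 1.86 to 1.99). Both declined along the index, S100a8 more than S100a9.

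Retnlg and Mmp8 peaked in the middle range. Retnlg was at 6669, 16084 and 5716 CPM in early, middle and late control cells, with middle over late at 2.81 (2.66 to 2.97) and early over late at 1.17 (1.01 to 1.34). Mmp8 was at 241, 610.3 and 183 CPM, with middle over late at 3.34 (2.47 to 4.54) and early over late, from 8 early UMIs, at 1.32 (0.551 to 2.73). Mmp9 moved by less than 2-fold, at 483, 509 (406 to 629) and 345 CPM (291 to 405). Its early over late interval held 1 (1.40, 0.781 to 2.35), while middle cells were above late cells with intervals that did not overlap. Chil3 had 13 of its 18 control UMIs in early cells and 1 in late cells. In all, 5 of 9 genes with enough UMIs were at least 2-fold higher in early than late control cells and none lower, where 37.5% of 1846 genes were past 2-fold, 8.94% higher and 28.5% lower. Between middle and late cells 7 of 9 were higher and none lower, where 32.7% of 2135 genes were past 2-fold, 6.79% higher and 25.9% lower.

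**Figure D3:**
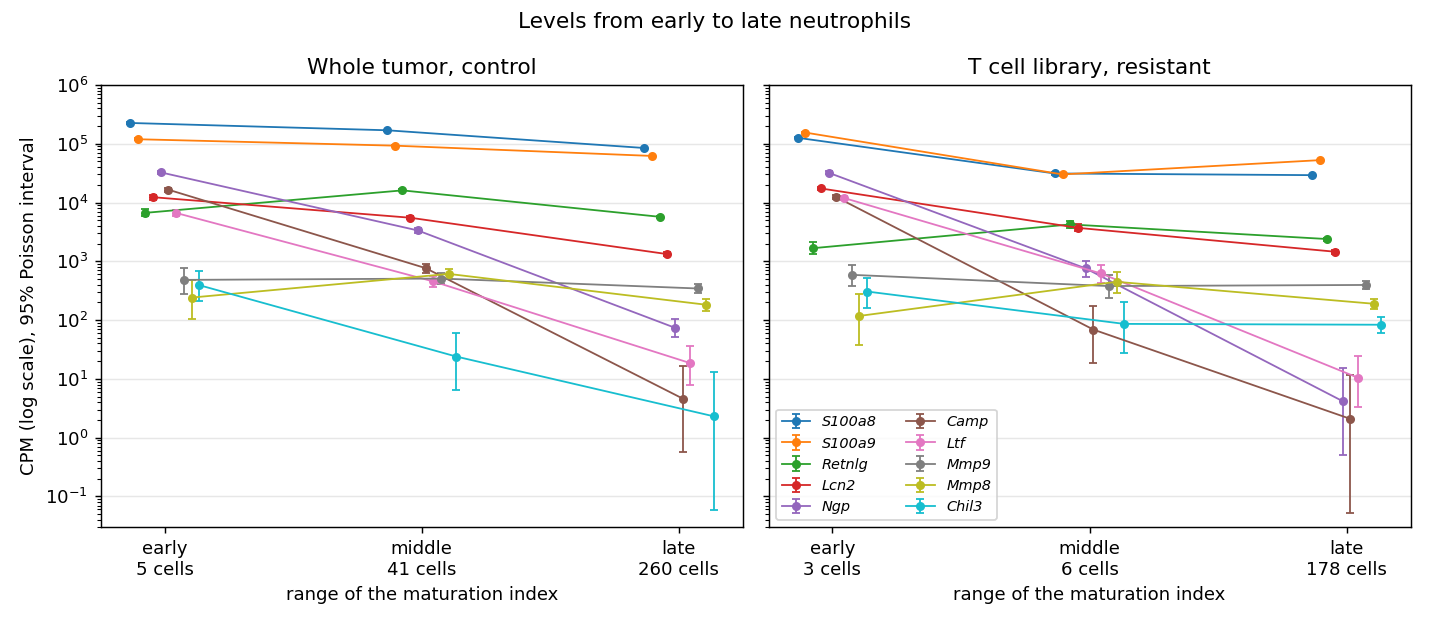
Level of each of the 10 genes in early, middle and late ranges of the maturation index, in CPM on a log axis, for control whole-tumor neutrophils (5, 41 and 260 cells) and for resistant neutrophils of the T cell libraries (3, 6 and 178 cells). Bars are 95% Poisson intervals. Ngp, Camp and Ltf drop by orders of magnitude toward the late range, while Retnlg and Mmp8 are highest in the middle range in both panels, in the T cell library with 83.7% and 65.4% of the middle-range UMIs in 1 cell.

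The other libraries with an early cell gave much the same order at the top. The single early cell of the sensitive library held 504 Ngp, 118 Camp, 79 Ltf, 225 Lcn2 and 2316 S100a8 UMIs among 11940. Outside it, sensitive neutrophils held 36 Ngp UMIs in 2 middle cells and 14 in 14 late cells, 2 Camp UMIs and 5 Ltf UMIs. The Retnlg level of that early cell (15913 CPM) was above that of the late cells (2905), the 9 middle cells stood at 15568 with 221 of their 253 UMIs (87.4%) in 1 cell, and the Mmp8 level of that cell (1005 CPM, 12 UMIs) was above both (185 and 106), unlike in control. In resistant neutrophils of the T cell libraries Ngp went from 32137 to 758 and 4.17 CPM, Camp from 12384 to 68.9 and 2.08, and Ltf from 11936 to 620.2 and 10.4. Only 2 of the 3 early cells there held these genes. In that library 7 of 10 genes were at least 2-fold higher in early than late cells and none lower, where 44.4% of 2434 genes were past 2-fold, 12.9% higher and 31.5% lower. Early over late was 11.9 (10.7 to 13.3) for Lcn2, 4.32 (4.18 to 4.46) for S100a8, 3.67 (1.80 to 7.01) for Chil3 and 2.94 (2.87 to 3.03) for S100a9. Retnlg (0.700, 0.542 to 0.889) and Mmp8 (0.621, 0.197 to 1.50) stood highest in the middle range (4238 and 448 CPM), where 1 of the 6 cells held 206 of 246 Retnlg UMIs (83.7%) and 17 of 26 Mmp8 UMIs (65.4%) lay in 1 cell. With early taken from an index of 0.3, the early over late ratios there turned to 2.08 for Retnlg and 2.49 for Mmp8.

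**Figure D4:**
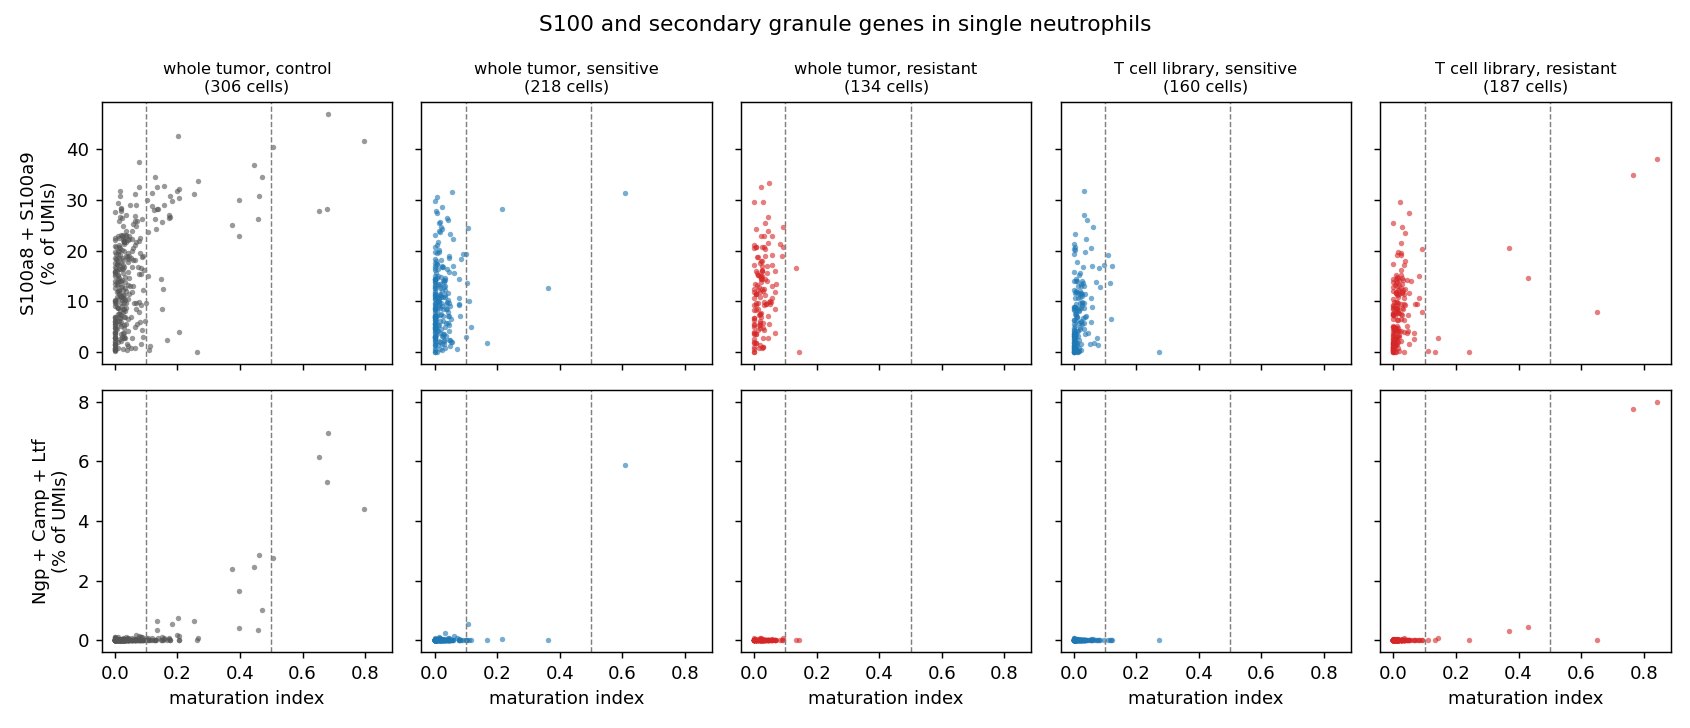
Single gated neutrophils of the 5 libraries placed by the maturation index (horizontal axis, 0 late to 1 early, dashed lines at 0.1 and 0.5). The upper row plots the percent of a cell's UMIs from S100a8 and S100a9 and the lower row the percent from Ngp, Camp and Ltf. Cells with a high percent of the lower 3 genes are few and lie toward the early end, while cells with a high percent of the S100 pair are found along the whole index.

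Since so few cells carried the secondary granule genes, the library comparisons were repeated in late-range neutrophils alone, a choice made after those cells had been seen. There 0 of 7 genes were past 2-fold for sensitive over control (11.6% of all genes, 4.09% lower). For resistant over control 1 of 7 was lower, Ngp at 0.449 from 10 against 32 UMIs (10.5% of all genes past 2-fold, 4.18% lower). For sensitive over resistant 2 of 7 were lower in whole tumor (8.60% of all genes past 2-fold, 3.56% lower) and 2 of 7 in the T cell libraries (7.93%, 5.05% lower). Sensitive stayed lower in Retnlg, at 0.508 of control, 0.461 of resistant in whole tumor and 0.464 of resistant in the T cell libraries, and Lcn2 was at 0.578, 0.505 and 0.556 in the same comparisons, the second of which had shown no difference beyond counting error over all neutrophils. Resistant over control turned from below to above 1 in both, to 1.10 (1.04 to 1.17) for Retnlg and 1.15 (1.01 to 1.30) for Lcn2, and was 1.60 (1.17 to 2.20) for Mmp8. Mmp8 was at 0.363 for sensitive over resistant in whole tumor, and Chil3 at 0.198 in the T cell libraries from 6 against 40 UMIs, all 6 in 1 cell and 33 of the 40 (82.5%) in 1 cell. Camp had 2, 2 and 0 UMIs in late whole-tumor cells and 0 and 1 in those of the T cell libraries, too few for a ratio. Ltf turned to a ratio of 2.90 in the T cell libraries, from 11 against 5 UMIs.

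Other granule genes were followed as a list of 20. For sensitive over control 4 of 11 with enough UMIs were at least 2-fold lower and none higher (median ratio 0.627), beside 5.23% of all genes lower and 10.2% higher. The same numbers held for resistant over control (median 0.628), beside 5.33% of all genes lower. For sensitive over resistant 2 of 11 were higher, Olfm4 at 5.63 (27 against 4 UMIs) and Cd177 at 2.42, and none lower, beside 5.00% of all genes higher. In neutrophils of the T cell libraries 1 of 12 was higher and 2 lower, beside 3.34% and 7.86% of all genes. Olfm4 was higher in sensitive (2.15), while Lyz2, the macrophage and neutrophil lysozyme, was lower (0.485), as was Cybb, a subunit of the phagocyte oxidase (0.381). Macrophages express both, and the part of the macrophage markers, at 129 and 312 CPM in these neutrophils, was not tested. The primary granule genes Mpo, Elane, Ctsg and Bpi, and Fcnb of the early list, had 0 to 2 UMIs each in the neutrophils of every library. Prtn3, also a primary granule gene, had 0 to 6. These genes were thus at the limit of detection at this depth.

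Among 8 other S100 genes, S100a6 (0.455) and S100a10 (0.208) were at least 2-fold lower in sensitive than control neutrophils, of 4 with enough UMIs, beside 5.23% of all genes. In resistant S100a10 (0.428) and S100a13 (0.481) were at least 2-fold lower than control, of 5 with enough UMIs, beside 5.33% of all genes, and none of 3 was past 2-fold between sensitive and resistant whole tumor. In neutrophils of the T cell libraries 1 of 6 was lower in sensitive than resistant and none higher (median ratio 0.579), beside 7.86% of all genes lower. Toll-like receptor 4, a receptor of the S100a8 and S100a9 complex, was read in whole-tumor neutrophils at 96.3, 150.0 and 147 CPM in control, sensitive and resistant, with no ratio past 2-fold. Ly96, its co-receptor, stood at 50.5, 57.1 and 16.3 CPM and was past 2-fold lower in resistant than control (0.323, 0.0982 to 0.835) and higher in sensitive than resistant (3.50, 1.29 to 11.9, from 21 against 5 UMIs). Ager, another receptor, had at most 1 UMI in the neutrophils of any library.

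Over 8 points, the index ranges of the 3 whole-tumor libraries that held cells, log2(CPM + 10) of 1213 genes was correlated with that of Ngp and of S100a8. Highest with Ngp were Wfdc21 (Pearson r = 0.97), Prr13 (0.96), S100a8 (0.95), Aldh2 (0.95) and Mmp9 (0.94). Lower in the order, Lcn2 had 0.92, Camp 0.88 and Ltf 0.86. Highest with S100a8 were Ccnd3 (0.98), S100a9 (0.97), Wfdc21 (0.97), Rac2 (0.96) and Sh3bgrl3 (0.96). The points share libraries and differ in depth. They weigh equally although they held from 1 cell (sensitive early) and 2 cells (resistant middle) to 260 cells (control late), so these values are a description.

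Outside the neutrophil gate, whole-tumor cells of every well-filled type carried a little of the most abundant genes. In control, S100a8, S100a9 and Retnlg stood in T cells, macrophages, cancer cells and fibroblasts at 0.726% to 1.40% of their neutrophil level, and in resistant at 0.274% to 0.815%. In sensitive, with 4 T cells, 14 macrophages and 7 cancer cells, they ranged from 0% for Retnlg in T cells to 4.12% for S100a9 in cancer cells. An S100a8 or S100a9 UMI was found in 57 of 65, 4 of 4 and 8 of 13 T cells of control, sensitive and resistant. The S100a8 to S100a9 balance was 1.21 (0.900 to 1.63) in control T cells and 1.45 (1.10 to 1.90) in control fibroblasts, against 1.56 in neutrophils, while control cancer cells were below that at 1.19 (1.05 to 1.36) and the 18 control macrophages stood at 2.06 (1.47 to 2.90). In the 7 cancer cells of sensitive it was 0.547 (0.383 to 0.776), against 1.31 in neutrophils. In control T cells S100a8 stood at 932 CPM, beside 961 in fibroblasts and 829.5 in cancer cells. In resistant T cells it stood at 225 CPM (13 UMIs), below the 489.8 in fibroblasts and 480.4 in cancer cells. No expression by T cells was read from these levels.

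Some of the genes had levels or balances of their own in other types, Lcn2 and Mmp9 in cancer cells, Chil3 in macrophages and, in macrophages of the T cell libraries, S100a8 and Mmp9. Cancer cells, gated by keratins and Epcam, held Lcn2 at 658 CPM in control (24 of 37 cells) and 1143 CPM in resistant whole tumor. In the 7 cancer cells of the sensitive library it was at 13132 CPM with 542 of 552 UMIs in 1 cell. In the T cell libraries cancer cells held it at 2631 CPM in sensitive (84 of 122 cells) and 2079 CPM in resistant (121 of 152), or in 54.7% and 53.7% of cells at 1000 UMIs, which is 3.46 and 0.732 times the level of the same library's neutrophils. Mmp9 in cancer cells stood at 180.0, 262 and 62.0 CPM in control, sensitive and resistant whole tumor (45.6%, 82.2% and 23.4% of the neutrophil level), with 9 of the 11 UMIs of sensitive in 1 cell, and at 151 and 110.2 CPM in the sensitive and resistant T cell libraries (41.9% and 27.0%). Ltf in cancer cells of the T cell libraries, at 16.5 and 41.4 CPM (58.0% and 4.39% of the neutrophil level), came from 2 and 3 cells. Chil3 in T cell library macrophages stood at 728 CPM in sensitive, 1072 of 1626 UMIs in 1 cell, and 94.0 CPM in resistant, which is 40.3 and 0.941 times the neutrophil level. In whole-tumor macrophages Chil3 stood at 23.7 CPM (2 UMIs) in control, 666 CPM in sensitive (25 of 44 UMIs in 1 cell) and 407 CPM in resistant (100 of 111 UMIs in 1 cell). S100a8 was also apart from S100a9 in these macrophages. It stood at 46.1 CPM in sensitive (36 of 224 cells) and 134 CPM in resistant (47 of 182 cells), where S100a9 stood at 17.0 CPM (3 cells, 25 of 38 UMIs in 1) and 6.43 CPM (11 cells). UMIs of S100a8 per UMI of S100a9 came to 2.71 (1.85 to 4.04) and 20.8 (12.0 to 39.7), both above the 0.405 and 0.632 of the neutrophils beside them, and at 1000 UMIs S100a8 was seen in 4.55% and 5.08% of macrophages against 0% and 0.826% of fibroblasts. Macrophages of the T cell libraries also had Mmp9 at 94.0 and 300.3 CPM and Mmp8 at 18.4 and 99.0 CPM in sensitive and resistant, below the neutrophils of the same libraries, while whole-tumor macrophages had only 1 or 2 Mmp9 UMIs per library.

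T cells of the T cell libraries carried traces of these genes that differed between libraries. S100a8 had 74 UMIs in 2002 sensitive T cells and 701 in 1912 resistant T cells, a CPM ratio of 0.114 (0.0884 to 0.145). S100a9 had 272 and 1279 UMIs (0.230, 0.201 to 0.262), Lcn2 26 and 121 (0.232, 0.146 to 0.357), Mmp8 1 and 30 (0.0360, 0.000882 to 0.216), and Retnlg 0 and 112 (0.0289 with 3 UMIs in place of 0). Mmp9 went the other way, 84 against 22 UMIs (4.12, 2.55 to 6.92), with 54 of the 84 in 1 cell. Ngp and Camp had 0 UMIs in the T cells of both libraries, where 3 cells with a UMI would be 0.150% in sensitive and 0.157% in resistant. With no doublets removed Lcn2 turned the other way, to 1.60 (304 against 205 UMIs). So 5 of 7 genes with enough UMIs were at least 2-fold lower in sensitive T cells and 1 higher, where 7.25% of 11867 genes were past 2-fold, 5.31% higher and 1.94% lower. The median ratio of those 7 genes was 0.230 and that of all genes 1.11.

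Most of the S100a8 and S100a9 UMIs sat in very few T cells that also held neutrophil markers, and most Lcn2 UMIs did not. In each library 12 T cells had more than 2 of the 10 neutrophil markers, and they held 314 of 346 S100a8 and S100a9 UMIs (90.8%) in sensitive and 1689 of 1980 (85.3%) in resistant. Their median UMIs were 13475.5 and 8873, against 3917 and 4535.5 in the other T cells, and whether they were a T cell and a neutrophil in the same droplet was not tested. Of the 10 markers, Pglyrp1 was seen in 46.5% of all gated T cells in sensitive and 61.9% in resistant, so the marker count is not specific to neutrophils. In the T cells outside those 12 of each library the pair stood at 3.18 CPM in sensitive and 26.7 CPM in resistant. Ratios in these cells, which were set apart after seeing the data, stayed on the same side, with S100a8 at 0.134 (11 against 89 UMIs), S100a9 at 0.113 (21 against 202) and Lcn2 at 0.352 (24 against 74), and Mmp9 at 2.76 (28 against 11). That made 3 lower and 1 higher of 4 with enough UMIs, against 7.10% of all genes, 5.06% higher and 2.04% lower.

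Fibroblasts, which should lack S100a8 and S100a9, gave the background for the T cell shares of that pair. At 1000 UMIs per cell, which left out 43 and 15 T cells and 34 and 6 fibroblasts of the sensitive and resistant library, S100a8 was seen in 0.306% of T cells (0.112 to 0.665) in the sensitive library and 1.21% (0.770 to 1.81) in the resistant, and in 0% and 0.826% (0.269 to 1.92) of fibroblasts. S100a9 was seen in 0.357% (0.144 to 0.735) and 1.48% (0.983 to 2.13) of T cells and in 0.619% (0.201 to 1.44) and 0.826% of fibroblasts. Without thinning, the S100a8 shares were 0.649% and 2.82% in T cells (median UMIs 3937 and 4543) and 1.19% and 3.27% in fibroblasts (13021 and 13620). Lcn2 was seen in 0.204% and 0.843% of T cells, but fibroblasts also held Lcn2 (1.11% and 3.14% of cells) and Mmp9 (54.6 and 14.7 CPM), so they were not used as background for these genes. The T cell shares of S100a8 and S100a9 lay within counting error of the fibroblast shares of the same library. Their summed levels did not, with S100a8 at 7.24 CPM in T cells against 2.03 in fibroblasts of the sensitive library and 63.6 against 20.03 in the resistant, and S100a9 at 26.6 against 1.43 and 116 against 27.4. As a sum, the pair in T cells with at most 2 neutrophil markers, at 3.18 and 26.7 CPM as given above, was not above the fibroblasts. The sum does not speak for each gene alone. Those T cells were set apart after seeing the data and fibroblasts were not filtered in the same way, so nothing is concluded from it.

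**Figure D5:**
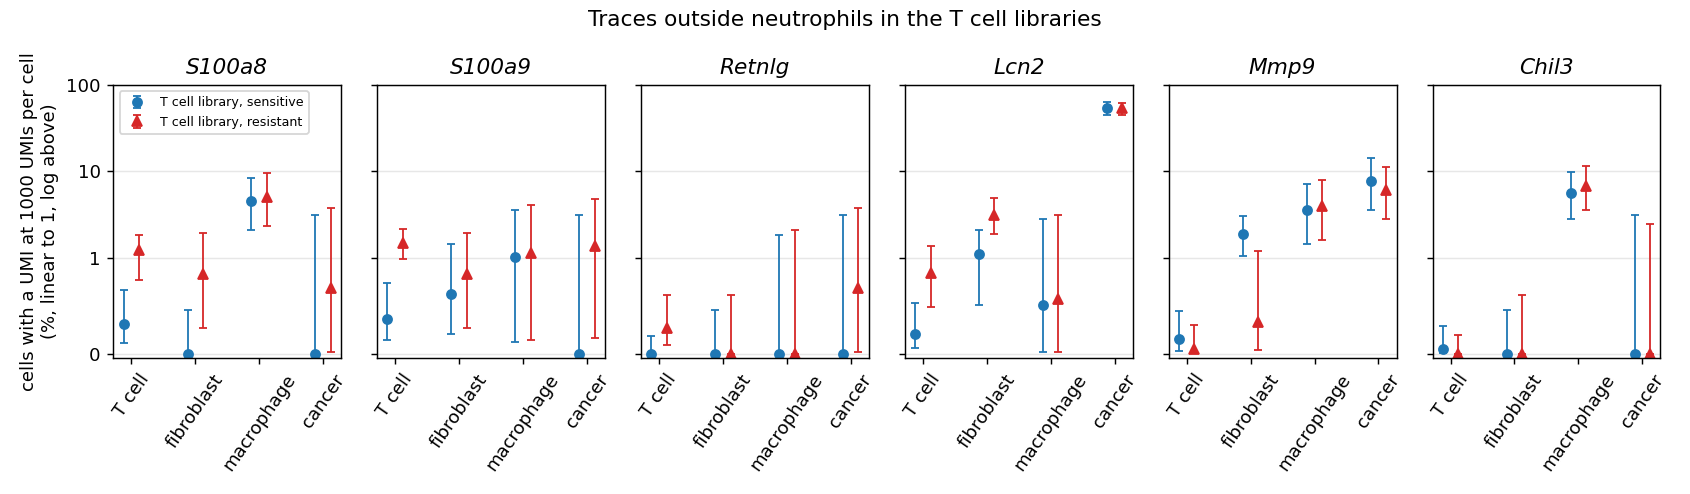
Percent of cells with at least 1 UMI of 6 of the genes after each cell was thinned to 1000 UMIs, in T cells, fibroblasts, macrophages and cancer cells of the sensitive and resistant T cell libraries. The axis is linear up to 1% and logarithmic above, and bars are 95% Clopper-Pearson intervals. T cell shares of S100a8 and S100a9 overlap those of fibroblasts, and Lcn2 is high in cancer cells of both libraries.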

How the data were processed

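UMI counts per gene and barcode were deposited as Cell Ranger gave them, aligned to mm10 by the authors and not normalized. The file headers name Cell Ranger 3.0.1 for the whole-tumor libraries (54987 features) and 6.0.0 for the T cell libraries (32285 features). The library totals were 1654559, 537293 and 1731940 UMIs in control, sensitive and resistant whole tumor (501, 278 and 275 barcodes) and 31690845 and 35908799 in the sensitive and resistant T cell libraries (3949 and 6116 barcodes). Groups were taken from the titles.

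Barcodes with at least 200 genes were kept. In the T cell libraries barcodes over 10% mitochondrial UMIs were dropped, and the highest Scrublet scores (scanpy 1.11.5), 0.8% per 1000 barcodes, were removed as putative doublets (110 in sensitive, 88 in resistant). After these steps 3605 of 3949 sensitive and 3229 of 6116 resistant barcodes were kept. The 37 mitochondrial features of the whole-tumor files all held 0 UMIs, so no such limit could be set there, and no doublets were removed. Each barcode was given the type, of 8 lists of 10 markers, with the most detected markers, and T cells also needed a UMI of Cd3d, Cd3e or Cd3g. UMIs were summed over the gated cells of a library and scaled to 1000000 (CPM). Ratios of levels, their intervals and the 2-fold counts were tested on simulated data, drawn as Poisson counts from library sums. Those data held no clustering of UMIs in single cells, so they do not bear on levels carried by 1 cell. Levels were not divided by gene length, since UMIs were counted at transcript ends, and are compared between cells and libraries and not between genes.

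The genes, the lists and the index were chosen with earlier results of these data known. The genes named were the 10 genes, genes of the lists with the highest or lowest ratios, and the 5 genes most correlated with Ngp or S100a8. Alternatives were other scalings, a mean over cells, other marker, gene, UMI and index limits, and no doublet or mitochondrial filter. Promoter sequences came from RefSeq (GRCm38.p6, 9 of 10 genes matched) and gene positions from the GENCODE annotation of the same build.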

Additional observations from a re-analysis of the deposited data

Results flagged for a closer look

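Ngp, Camp and Ltf differed between sensitive and resistant tumors in opposite directions in neutrophils of the whole-tumor and of the T cell libraries. In whole tumor, sensitive over resistant was 46.2 for Ngp, 33.4 for Camp (0 UMIs in resistant, taken as 3) and 70.0 for Ltf. In the T cell libraries it was 0.00318 for Ngp, 0.00846 for Camp (0 UMIs in sensitive, taken as 3) and 0.0301 for Ltf. The difference between the library sets was not tested, since each group had 1 library. The whole-tumor ratios come mostly from 1 early cell of the sensitive library, which held 504 of 554 Ngp, 118 of 120 Camp and 79 of 84 Ltf UMIs, and those of the T cell libraries on 2 early cells of the resistant library.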

How the results depend on the processing

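With 1 library per group no library could be left out. No paired analysis was possible because each group held 1 library. The counts of genes past 2-fold fell when early and middle cells were left out, which also left fewer genes with enough UMIs. In late-range neutrophils alone, an alternative chosen after seeing the data, they were 0 in place of 5 for sensitive over control, 1 in place of 4 for resistant over control, 2 in place of 4 for sensitive over resistant in whole tumor and 2 in place of 5 in the T cell libraries, with 7 genes having enough UMIs in place of 9 or 10. There Ltf turned to 2.90 in the T cell libraries (11 against 5 UMIs). Lcn2 in T cells turned to 1.60 (304 against 205 UMIs) when no doublets were removed. With early taken from an index of 0.3, the early share of control became 3.92% (12 of 306 cells). Of the counts and early shares, 74 values under the other alternatives stayed within 1.5 times or within their interval. Of the values for single genes, 453 stayed within their interval, 128 moved beyond it and 2 that were past 2-fold turned, those of Ltf and Lcn2 above. Ratios crossed 1 in 21 cases in all, those 2 included, of which 6 stayed within their interval and 13 had moved beyond it. Resistant over control in late-range cells was among these, at 1.15 for Lcn2, 1.10 for Retnlg and 1.60 for Mmp8. Of the ratios between libraries, a mean over cells moved 27 beyond their interval and left 19 the same. With no mitochondrial limit 8 moved and 9 stayed the same. The causes were not tested. Depth limits what can be said of absence. In the 306456 UMIs of resistant whole-tumor neutrophils, 3 UMIs in place of a count of 0 would give 9.79 CPM.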
